A study of Rattus norvegicus with 138 samples.

Results

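The scavenger and alternatively activated macrophage genes are described here by 8 genes chosen by symbol: Mrc1, Cd163, Msr1, Marco, Lyve1, Folr2, Stab1 and Il10. Of these, 7 had a row in the table of 16181 gene symbols, and Stab1 was not analysed here. Marco was listed above 0 in 6 libraries, never above 0.03 TPM (a level relative to all transcripts of a library, corrected for transcript length), and was not tested. The remaining 6 were among the 11328 genes that exceeded a mean of 1 TPM in at least 1 group. Mrc1, Cd163, Lyve1 and Folr2 did so in all 31 groups, uninjured control included. Msr1 did so in 23 groups and Il10 in 8, none of them the control group, so these 2 entered the test through groups in which they were high and counts over all 6 genes are descriptions.

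The study followed volumetric muscle loss (VML), a surgical loss of muscle too large to regenerate, in the tibialis anterior (TA) of male Lewis rats, an inbred strain, about 4 months old. A 6 mm biopsy punch removed the middle of 1 TA, and whole TA muscles were sequenced at 3, 7, 14 and 28 days post injury (DPI). Injured muscles were left non-repaired or were repaired with minced muscle grafts (MMGs), small fragments of the excised tissue put back into the defect, in rats that ran or did not run. How the running was done is not given in the sources used here. The contralateral TA of some of the same rats was sequenced, and 4 control muscles, labelled Sham at day 0, came from both legs of 2 rats. After library quality was examined, 116 libraries of 114 muscles from 78 rats were compared: 76 injured, 34 contralateral and 4 control. The rats fell into ranges of consecutive numbers that ran with the day: all 14 DPI rats came from 1 range, all 28 DPI rats from another, and the control rats from a separate series, so that range and group cannot be told apart in comparisons with 28 DPI across days or with control. At 7 DPI 3 ranges were present. At 3 DPI the 3 non-repaired, non-running injured muscles came from 1 range. The non-repaired running group (4 and 4 muscles) and the grafted non-running group (5 and 2) were split over that range and another. Groups held 2 to 8 muscles, and the non-repaired, non-running injured groups held 3, 8, 4 and 4 muscles at 3, 7, 14 and 28 DPI.

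Macrophages that clear debris carry scavenger and endocytic receptors, which bind modified lipoproteins, dead cell material, hemoglobin or glycans and bring them into the cell. Interleukin-4, interleukin-13, interleukin-10 and glucocorticoids raise many of these receptors in culture, a state called alternative activation, in contrast to the classical activation caused by interferon-gamma and bacterial products. In resting muscle, Lyve1, Folr2, Mrc1 and Cd163 are known from resident macrophages that lie along vessels and connective tissue sheaths. After muscle injury, monocytes enter and give rise to further macrophages, first inflammatory and later restorative. Lyve1 is also carried by lymphatic endothelium.

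The promoters of the 4 genes with a mean above 1 TPM in every group are shown. Each is the RefSeq sequence of assembly GRCr8 from 250 bases before to 50 bases after the gene start, 5′ to 3′ on the strand of the gene. Mrc1 lies at chr17:82157475-82157774 (+), Cd163 at chr4:158770524-158770823 (+), Lyve1 at chr1:174410928-174411227 (-) and Folr2 at chr1:165630333-165630632 (-). Capitals mark matches, on either strand, to GAGGAA (a core bound by PU.1, the main myeloid regulator), TGCTGA (a core bound by Maf factors) or TTCNNNNGAA (a STAT palindrome), and no matches overlapped.
Mrc1: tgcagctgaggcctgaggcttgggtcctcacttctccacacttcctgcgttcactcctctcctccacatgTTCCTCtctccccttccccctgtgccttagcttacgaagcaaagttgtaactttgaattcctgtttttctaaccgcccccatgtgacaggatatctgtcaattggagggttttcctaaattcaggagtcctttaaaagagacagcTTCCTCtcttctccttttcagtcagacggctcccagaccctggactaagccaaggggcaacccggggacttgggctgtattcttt
Cd163: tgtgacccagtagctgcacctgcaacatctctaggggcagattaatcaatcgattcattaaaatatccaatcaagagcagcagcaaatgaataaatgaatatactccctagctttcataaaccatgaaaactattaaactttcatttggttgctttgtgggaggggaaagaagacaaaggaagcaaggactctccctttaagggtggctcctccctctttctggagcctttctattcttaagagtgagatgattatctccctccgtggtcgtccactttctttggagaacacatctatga
Lyve1: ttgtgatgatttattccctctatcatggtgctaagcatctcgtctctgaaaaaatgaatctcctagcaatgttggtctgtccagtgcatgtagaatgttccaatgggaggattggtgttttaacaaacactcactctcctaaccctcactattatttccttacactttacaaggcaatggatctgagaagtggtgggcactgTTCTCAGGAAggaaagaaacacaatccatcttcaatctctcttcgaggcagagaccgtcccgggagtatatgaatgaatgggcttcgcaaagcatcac
Folr2: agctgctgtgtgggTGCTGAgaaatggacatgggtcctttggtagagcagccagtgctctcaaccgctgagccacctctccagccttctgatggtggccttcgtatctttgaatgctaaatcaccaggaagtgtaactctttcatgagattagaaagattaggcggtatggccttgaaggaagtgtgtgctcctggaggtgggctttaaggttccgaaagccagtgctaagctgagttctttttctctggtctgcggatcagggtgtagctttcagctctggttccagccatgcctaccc
Mrc1 held GAGGAA at 2 places on the other strand, starting 180 and 35 bases before the gene start. Lyve1 held 1 STAT palindrome, Folr2 held 1 Maf core, and Cd163 held no match. Among all 33469 promoters of this length, 27.6% held GAGGAA, 18.4% TGCTGA and 7.28% TTCNNNNGAA. No motif was shared by any pair of these 4 promoters. The table had no promoter for Msr1 or Il10.

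In control muscle the receptor genes were present at low levels. Lyve1, a hyaluronan receptor, was at 2.63, 2.21, 2.99 and 1.47 TPM, and Folr2, a folate receptor, was at 1.79, 2.86, 2.41 and 0.62 TPM. Cd163, the receptor for hemoglobin bound to haptoglobin, was at 1.21, 1.29, 1.47 and 0.74 TPM, and Mrc1, the macrophage mannose receptor, was at 1.00, 1.39, 1.37 and 0.69 TPM. The fourth control muscle was the lowest for each of these genes. Msr1, the class A scavenger receptor, lay between 0.11 and 0.41 TPM, and Il10, an anti-inflammatory cytokine, was listed at 0 in all 4. By the medians, Lyve1 stood first, followed by Folr2, Cd163 and Mrc1. The Folr2 range overlapped those of the other 3 genes, and every Lyve1 value was above every Mrc1 value.

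At 3 DPI all of these genes stood far above control. Among the scavenger receptors, Cd163 reached 104, 120 and 107 TPM in the 3 non-repaired, non-running muscles. Msr1 reached 52.0, 55.7 and 56.5 TPM, the narrowest relative range of the set. Mrc1, which belongs to the mannose receptor family, reached 121, 139 and 120 TPM. Every injured muscle was far above every control muscle for these genes. Folr2 was the most abundant, at 287, 224 and 217 TPM, and Lyve1 was at 49.2, 58.7 and 45.1 TPM. Il10 was at 3.70, 1.94 and 1.78 TPM. The first of these muscles was the highest for Folr2 and Il10, and was not the highest for Mrc1, Cd163, Msr1 or Lyve1.

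**Figure D1:**
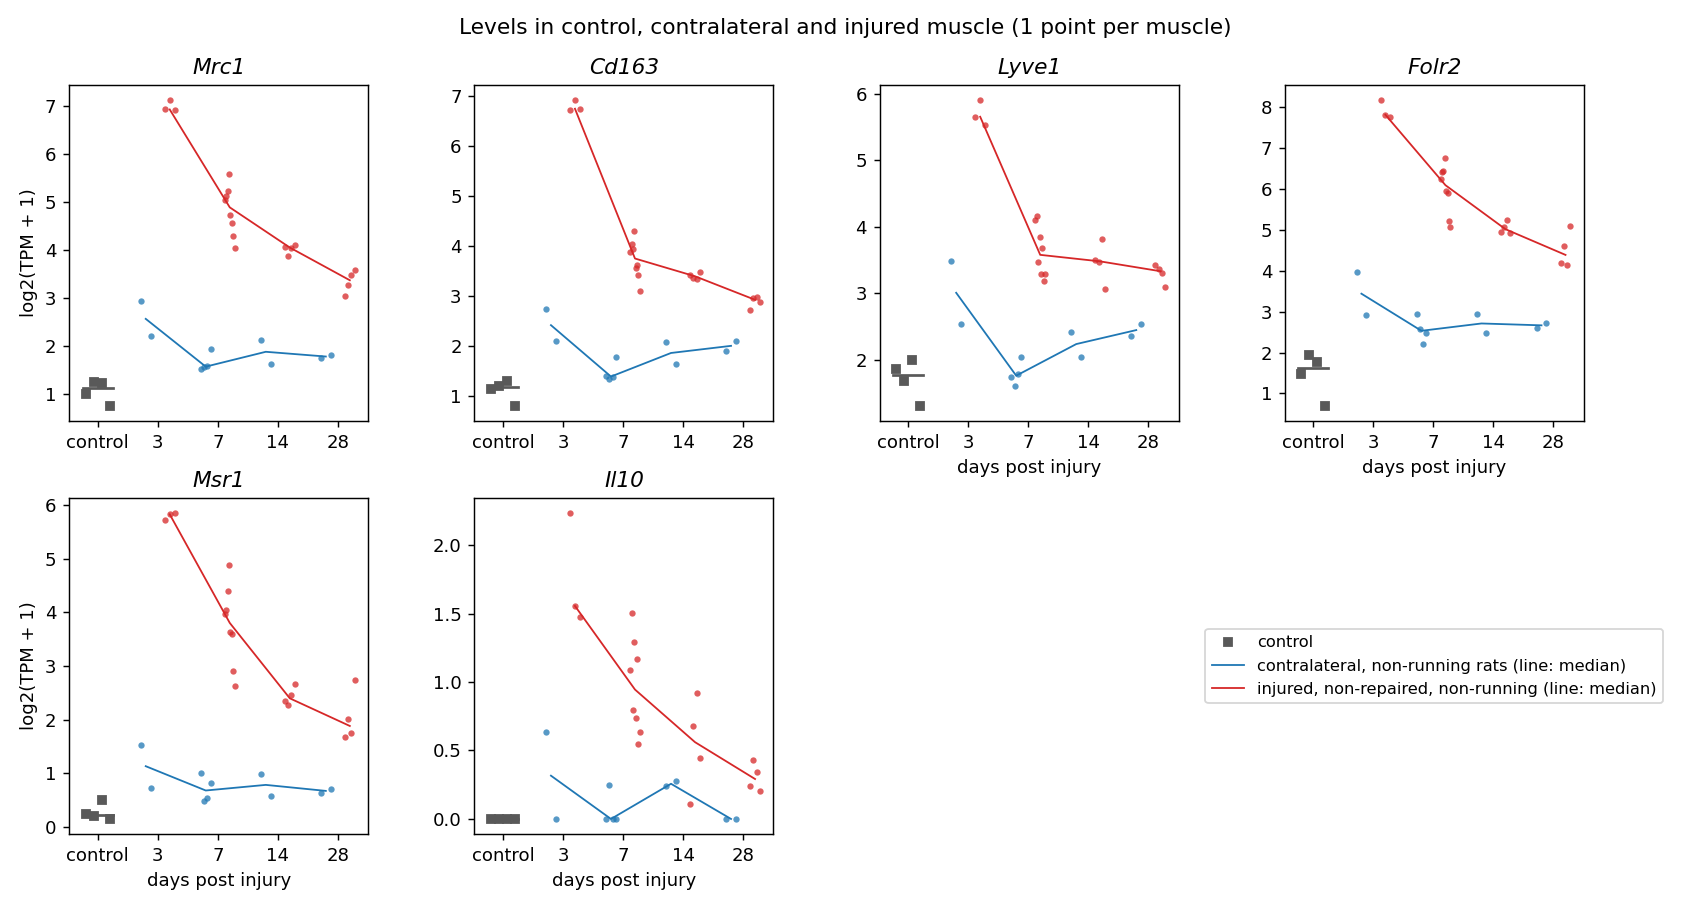
Level of each gene as log2(TPM + 1), 1 point per muscle, in control muscle (grey squares, bar at the median) and at 3, 7, 14 and 28 DPI in contralateral (blue) and injured (red) muscle of non-repaired, non-running rats, with lines through the medians. Every injured muscle stands above every control muscle at each day for all 6 genes. The y axes differ between genes.

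Tested against control, all 6 genes were higher in injured muscle at 3 DPI. Differences were taken on log2(TPM + 1), which understates the change of a gene near 0, in a limma model over all 31 groups, and a gene passed with a Benjamini-Hochberg adjusted p under 0.05 and a log2 difference above 1 in size. Folr2 differed by a log2 of 6.45 (SE 0.28, adjusted p = 1.5e-35), Mrc1 by 5.93 (SE 0.24, adjusted p = 3.1e-37) and Cd163 by 5.68 (SE 0.25, adjusted p = 9.6e-36). Msr1 differed by 5.53 (SE 0.31), Lyve1 by 3.98 (SE 0.26) and Il10 by 1.75 (SE 0.23), with adjusted p of 7.6e-11 or less. The injury was broad at this time: 52.6% of all tested genes passed, 48.3% as higher, and the median log2 difference over all tested genes was 0.96, against 5.61 over the 6. After rescaling by median-of-ratios size factors, which centre the typical gene by construction, the all-gene median was 0.09, and all 6 still passed.

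By 7 DPI the levels had come down, unequally between genes. In 8 injured muscles Cd163 ran from 7.56 through a median of 12.5 to 18.7 TPM, all far below the 3 DPI muscles. Lyve1 ran from 8.08 through 10.9 to 16.9 TPM, and Mrc1 from 15.5 through 28.9 to 47.1 TPM. Neither overlapped its 3 DPI range. Folr2 ran from 32.9 through 67.6 to 107 TPM and Msr1 from 5.17 through 13.1 to 28.4 TPM, again below every 3 DPI muscle. Il10 ran from 0.46 through 0.94 to 1.83 TPM and overlapped its 3 DPI range. Between 3 and 7 DPI, 5 of the 6 genes fell, where 7.34% of all tested genes passed in either direction and the all-gene median was -0.06. Cd163 fell by 3.06 on the log2 scale (SE 0.22, adjusted p = 1.6e-20), Mrc1 by 2.16 (SE 0.22), Lyve1 by 2.06 (SE 0.23), Msr1 by 2.04 (SE 0.27) and Folr2 by 1.92 (SE 0.25). Il10 differed by -0.78 (SE 0.20, adjusted p = 0.0013), short of the size limit. Within the range of rats that held all 3 non-repaired, non-running muscles of 3 DPI, the same count of 5 was found, with Cd163 at -2.76.

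Between 7 and 14 DPI Msr1 passed as lower, and the other 5 genes did not pass. At 14 DPI Msr1 was at 4.08, 3.85, 4.47 and 5.35 TPM, which overlapped the lowest of the 8 muscles at 7 DPI. It fell by 1.32 on the log2 scale (SE 0.25, adjusted p = 4.0e-06), 1 of 6 genes where 6.82% of all genes passed and the all-gene median was -0.40. With all libraries kept, and after size-factor scaling, its difference was -0.98 and -0.96, short of the size limit, and Folr2 passed as well (-1.02 to -1.09) without replicate 7 or 8 at 7 DPI or replicate 3 at 14 DPI. All 14 DPI muscles came from 1 range of rat numbers, and at 7 DPI only replicates 7 and 8 did, which were the lowest for Msr1 (6.51 and 5.17 TPM) and Folr2 (36.4 and 32.9 TPM). Within that range the difference of Msr1 was -0.33 (adjusted p = 0.35) and that of Folr2 -0.11, and limma called 0 of the 6 genes and 1.98% of all genes, while the fit with the range as a covariate gave -1.1 for Msr1, which passed. The part of the rat range in the fall of Msr1 was not tested further. Cd163 was at 9.75, 9.28, 9.18 and 10.2 TPM and Lyve1 at 10.2, 10, 13 and 7.34 TPM. These were inside the 7 DPI ranges except for the lowest Lyve1 muscle, which was below. Their differences were -0.33 (SE 0.20, adjusted p = 0.14) and -0.17 (SE 0.21, adjusted p = 0.45), and both turned to a small positive value after rescaling by size factors. Mrc1 at 15.8, 13.8, 15.5 and 16.4 TPM and Folr2 at 30.0, 32.8, 36.6 and 29.4 TPM lay at or below the low end of their 7 DPI ranges, 3 of the 4 Folr2 muscles and 1 Mrc1 muscle being below every 7 DPI muscle. The differences, -0.80 for Mrc1 and -0.95 for Folr2, did not reach the size limit.

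At 28 DPI the injured muscles still stood above control. Folr2 was at 17.2, 23.2, 16.7 and 32.9 TPM and Mrc1 at 7.22, 8.64, 10.2 and 11.1 TPM. Lyve1 was at 9.70, 9.27, 8.84 and 7.54 TPM and Cd163 at 5.58, 6.82, 6.88 and 6.36 TPM. Msr1 was at 2.21, 3.05, 2.36 and 5.72 TPM, and the muscle that was highest for Msr1 was also the highest for Folr2 and Mrc1. Il10 lay between 0.15 and 0.35 TPM. None of the 6 genes passed between 14 and 28 DPI, where limma called 0.459% of all genes, and 3 of the 6 had an unadjusted p under 0.05 (1564 of all genes did). Between 3 and 28 DPI all 6 fell, against 28.8% of all genes passing and an all-gene median of -0.44. Cd163 fell by 3.91 (SE 0.25) and Lyve1 by 2.40 (SE 0.26), and Il10 fell by 1.45 (SE 0.23). Folr2, Mrc1 and Msr1 fell by 3.42 to 3.75 on the log2 scale.

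Against control, 5 of the 6 genes were higher at 7, 14 and 28 DPI, and Il10 was the exception each time. Among all tested genes 48.1%, 25.5% and 21.3% passed at those days, with all-gene medians of 0.91, 0.53 and 0.52, and the medians over the 6 were 3.05, 2.23 and 1.77. Folr2 remained the furthest above control, by a log2 of 4.53 (SE 0.23), 3.58 (SE 0.26) and 3.03 (SE 0.26). Mrc1 was above by 2.28 (SE 0.23), Msr1 by 1.77 (SE 0.28), Cd163 by 1.77 (SE 0.23) and Lyve1 by 1.58 (SE 0.24) at 28 DPI. Il10 differed by 0.97 (SE 0.19, adjusted p = 1.6e-06), 0.54 (SE 0.21, adjusted p = 0.021) and 0.30 (SE 0.21, adjusted p = 0.19).

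**Figure D2:**
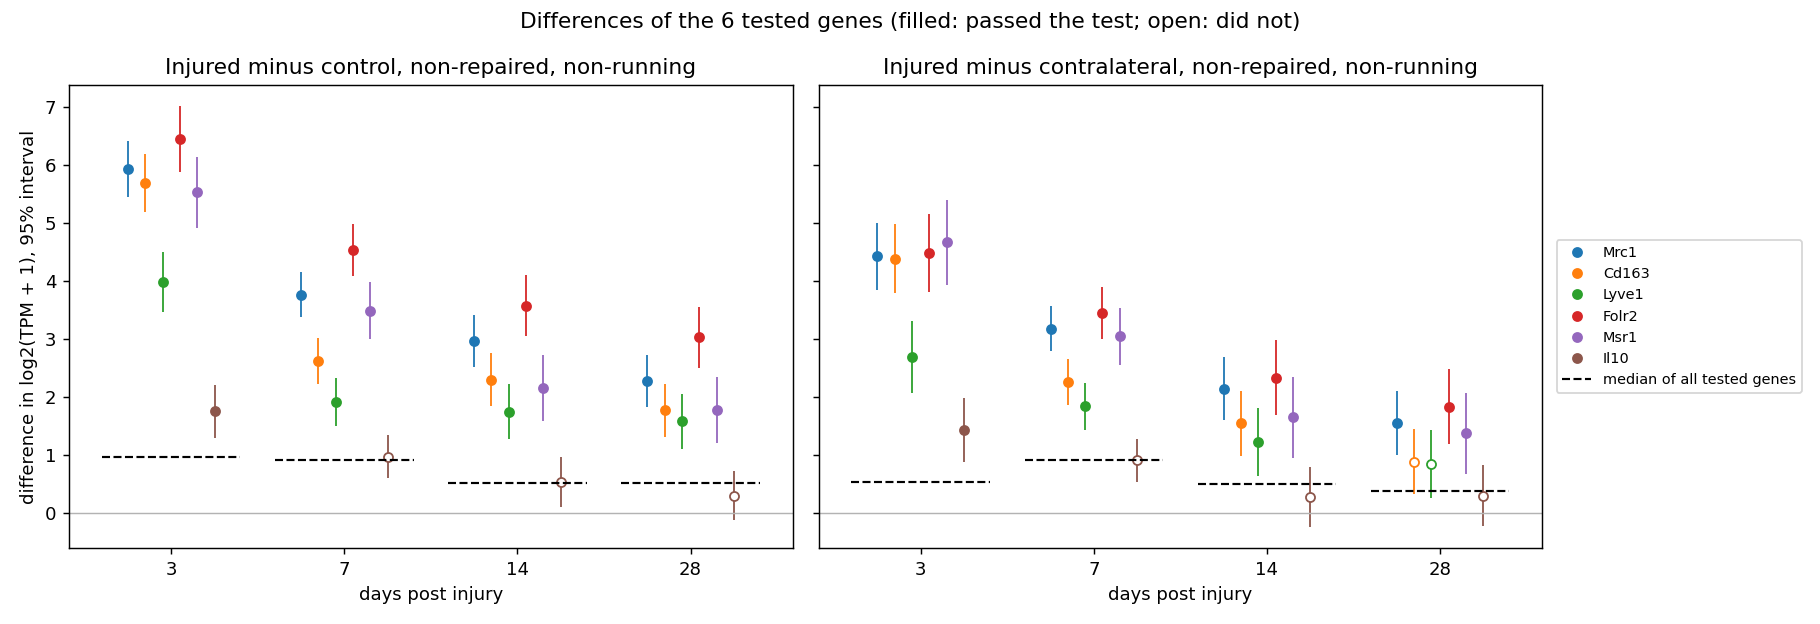
Difference in log2(TPM + 1) with its 95% interval for each gene at 3, 7, 14 and 28 DPI, injured minus control (left) and injured minus contralateral (right), in non-repaired, non-running rats; filled points passed the test, open points did not, and the dashed line is the median of all tested genes. Folr2 stands at 6.45 at 3 DPI and 3.03 at 28 DPI on the left, and Il10 lies near or below the all-gene median from 7 DPI on in that panel.

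The contralateral muscle gave the same question with the uninjured leg of operated rats as reference. In order of day, 6, 5, 5 and 3 of the genes were higher in injured muscle, where 38.2%, 47.4%, 21.1% and 13.3% of all genes passed with all-gene medians of 0.54, 0.91, 0.50 and 0.38. At 28 DPI the 3 were Folr2 (log2 1.84, SE 0.32), Mrc1 (1.56, SE 0.28) and Msr1 (1.38, SE 0.35). Cd163 at 0.88 (SE 0.28, adjusted p = 0.0072) and Lyve1 at 0.85 (SE 0.29, adjusted p = 0.013) missed the size limit. With MMG repair, 6, 6, 5 and 5 genes were higher than in the contralateral muscle of grafted rats, where 44%, 46.2%, 26.1% and 19.1% of all genes passed with all-gene medians of 0.66, 0.85, 0.58 and 0.49. After size-factor scaling the last 2 counts were 3 and 3. At 28 DPI in grafted rats Cd163 (1.10, SE 0.28) and Lyve1 (1.17, SE 0.29) passed beside Folr2 (2.05, SE 0.32), Mrc1 (1.70, SE 0.28) and Msr1 (1.55, SE 0.35).

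The contralateral muscles were not at the control level early on. At 3 DPI the 2 contralateral muscles of non-repaired, non-running rats had 6.66 and 3.61 TPM of Mrc1, 5.65 and 3.28 of Cd163, 10.2 and 4.77 of Lyve1, and 14.7 and 6.52 of Folr2. Every one of these values was above all 4 control muscles, and the first muscle was the higher for each gene. Against control, Folr2 (log2 1.97, SE 0.32, adjusted p = 2.6e-06), Mrc1 (1.51, SE 0.28), Cd163 (1.3, SE 0.28) and Lyve1 (1.29, SE 0.29) were higher, 4 of 6 where 6.43% of all genes passed and the all-gene median was 0.43. The 4 controls came from 2 rats, and in a model of these 2 groups alone none of the 6 passed. Without the first contralateral muscle 2 of the 6 passed. Folr2 also passed at 7 DPI (1.08, SE 0.26) and 14 DPI (1.24, SE 0.32), 1 of 6 each where 0.803% and 0.715% of all genes passed, but not when the second control rat, the fourth control muscle or some single contralateral muscles were left out. At 28 DPI limma called 0 of the 6 and 0.185% of all genes, and 4 of the 6 had an unadjusted p under 0.05 (1317 of all genes did). The neutrophil genes S100a8 and S100a9 were among those higher in contralateral muscle at 3 DPI, by 2.31 and 2.66, and the summed level of 12 neutrophil markers was 9.49 and 109 TPM in these 2 muscles against 1.28 to 5.96 TPM in control; their part in the difference was not tested.

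The members were set beside other macrophage genes to see whether they moved with them. In bulk muscle, fewer cells of a type and less RNA per cell cannot be told apart. All 17 pan-macrophage and monocyte markers were higher than control at 3 and 7 DPI and 16 of 17 at 14 and 28 DPI, led by Lyz2 and Cd68 at log2 7.93 and 7.36 at 3 DPI. In injured muscle Cd68, a lysosomal protein, was at 275 to 443 TPM at 3 DPI and 13.6 to 59.4 TPM at 28 DPI against 0.77 to 1.39 TPM in control. Csf1r was at 212 to 224 TPM and 17.2 to 25.8 TPM against 2.32 to 4.38 TPM, and Adgre1, which encodes F4/80, at 34.3 to 51.5 TPM and 4.61 to 7.80 TPM against 0.08 to 0.52 TPM. The summed level of the list was 40.9 to 75.8 TPM in control, 6448 to 8503 TPM at 3 DPI, 1050 to 4571 TPM at 7 DPI, 798 to 1009 TPM at 14 DPI and 450 to 1162 TPM at 28 DPI, with no marker at 0 in any of these groups. The markers also fell between 3 and 7 DPI, 13 of 17 by the test, with a median of -1.57, where 5.35% of all tested genes were lower and the all-gene median was -0.06. Fcgr1a, an IgG receptor, fell by 2.05. C1qa, C1qb, C1qc and Ccr2 did not pass.

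Relative to the mean log2 level of those 17 markers in the same muscle, the genes separated. Cd163 lay 0.28 below the marker mean at 3 DPI (median of 3 muscles), 2.12 below at 7 DPI (8 muscles, all between -2.54 and -1.60), 1.08 below at 14 DPI and 0.98 below at 28 DPI. Lyve1 lay at -1.5, -1.97, -0.97 and -0.60 at the same days. In control muscle Cd163 lay between -0.52 and -0.39, Lyve1 between -0.02 and 0.30, and Folr2 between -0.63 and 0.36. All 3 Lyve1 values at 3 DPI were already below the control range. Folr2 stayed above the marker mean in the median of each day, at 0.67, 0.20, 0.47 and 0.48. Mrc1 lay at -0.12, -1.02, -0.50 and -0.67, so that Cd163, Mrc1, Lyve1 and Folr2 were each lowest against the markers at 7 DPI. A low at this day was not particular to them. Csf1r, itself a marker of the list, lay at 0.25 to 0.70 at 3 DPI, at 0.28 or less at 7 DPI and at 0.35 to 0.53 at 14 DPI. Cd68 had no such low, at 0.54 to 0.95 at 7 DPI and 0.15 to 0.67 at 14 DPI. Msr1 went from -1.37 at 3 DPI to -2.09, -2.13 and -1.98. In grafted muscle Cd163 lay at -0.52, -2.29, -1.79 and -1.41, again lowest at 7 DPI, and Folr2 at 0.67, 0.31, 0.21 and 0.32, lowest at 14 DPI. These values are descriptions without a test.

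**Figure D3:**
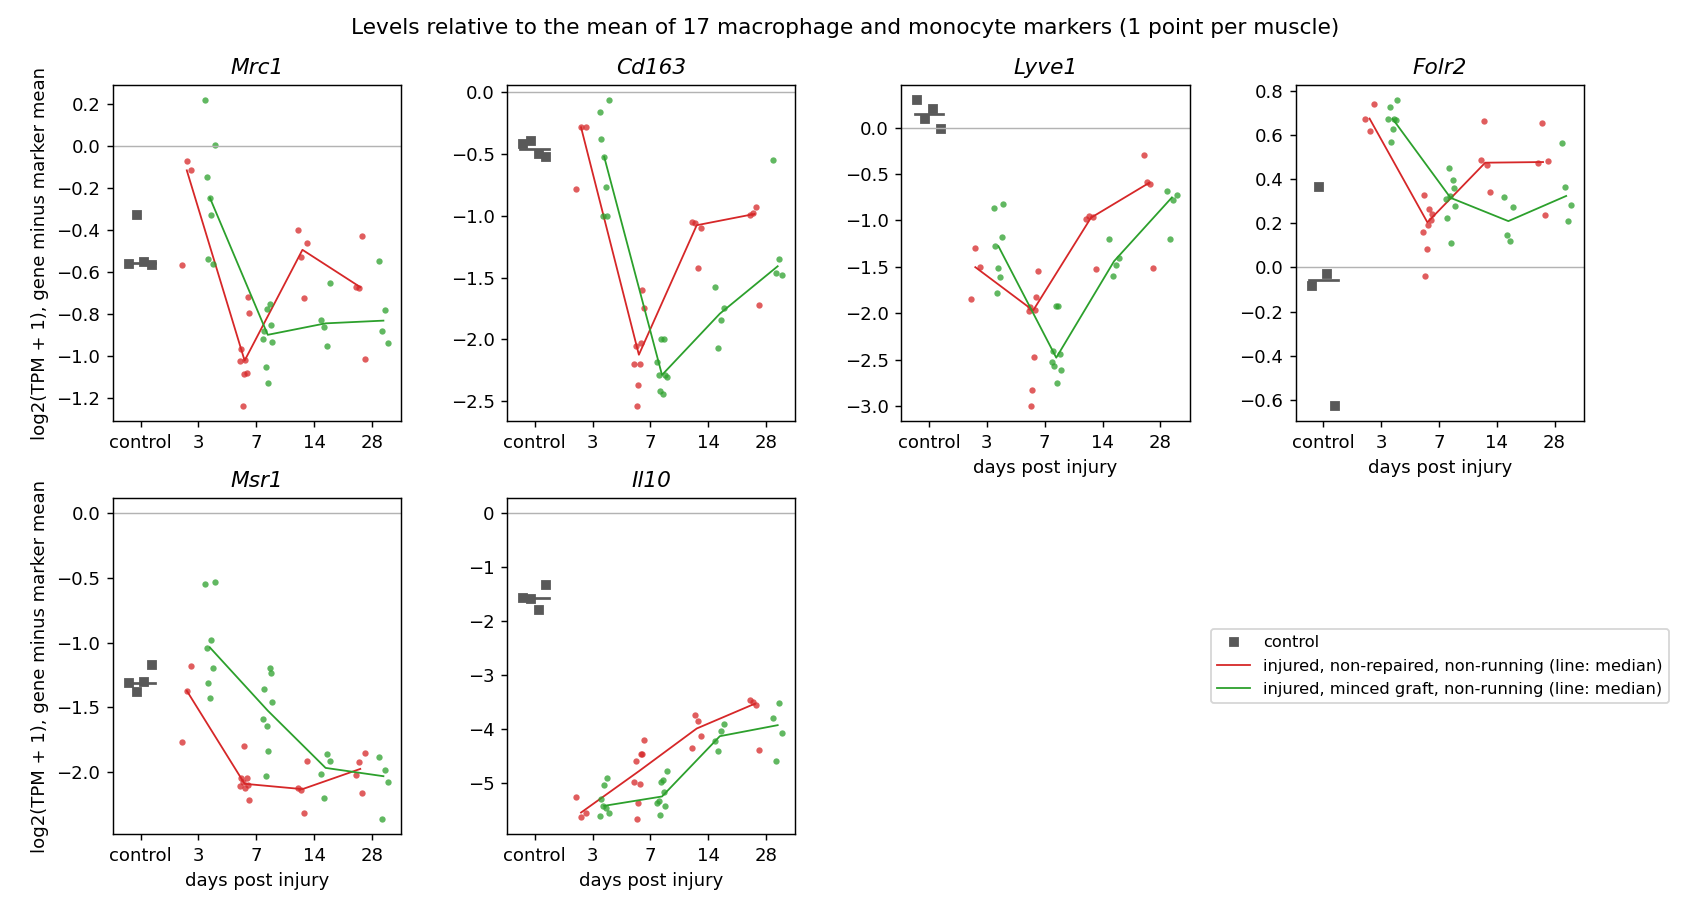
Log2(TPM + 1) of each gene minus the mean of 17 macrophage and monocyte markers in the same muscle, 1 point per muscle, in control muscle (grey squares) and in non-repaired (red) and minced graft (green) injured muscle of non-running rats at 3, 7, 14 and 28 DPI, with lines through the medians. Cd163 drops from -0.28 at 3 DPI to -2.12 at 7 DPI without repair, while Folr2 stays above 0 in the medians of the injured groups. In control muscle Folr2 lies between -0.63 and 0.36.

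Ratios of TPM between genes in a muscle, which need no marker list, showed the change directly. Cd163 over Folr2 had a median of 0.491 at 3 DPI (0.363 to 0.535), 0.183 at 7 DPI (0.167 to 0.265), 0.304 at 14 DPI (0.251 to 0.348) and 0.310 at 28 DPI (0.193 to 0.412). The 3 and 7 DPI ranges did not overlap. The same ratio in minced graft muscle was 0.449, 0.163, 0.224 and 0.283, and in control muscle it was 0.643 (0.451 to 1.19). In contralateral muscle of non-repaired, non-running rats it was 0.444, 0.378, 0.471 and 0.562, also lowest at 7 DPI. There the 3 DPI range (0.385 to 0.503) and the 7 DPI range (0.242 to 0.530) overlapped. Cd163 over Lyve1 was 2.12 at 3 DPI and 1.08, 0.939 and 0.757 at the later days, against 0.498 in control muscle, so Cd163 exceeded Lyve1 at 3 DPI and lay below it in every control muscle. Mrc1 over Folr2 moved little by comparison, with medians between 0.397 and 0.564 in control and all 4 days.

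Genes of related function were counted in the comparison with control, in which 48.3%, 45.6%, 25% and 21.1% of all tested genes were higher at 3, 7, 14 and 28 DPI. Of 18 tested genes of a list of other alternative activation genes, 16 were higher at 3 DPI, 15 at 7, 11 at 14 and 10 at 28 DPI, with medians of 3.06, 2.30, 1.61 and 1.40. Clec10a, a galactose-binding lectin, was higher by 6.21 and Fn1, which encodes fibronectin and is also made by fibroblasts, by 5.41 at 3 DPI. Between 3 and 7 DPI, Clec10a fell by 2.29, F13a1, a clotting factor subunit carried by resident macrophages, fell by 1.81 and Il4r, the interleukin-4 receptor, fell by 1.64, while the other 15 did not pass. As a share of the 18, these 3 exceeded the 5.35% of all genes that were lower. Of 14 tested resident macrophage genes, 14, 13, 12 and 12 were higher than control, with Pf4 at 5.72 and C1qa at 5.43 at 3 DPI, and 6 of them fell between 3 and 7 DPI, where 5.35% of all genes did. The lists overlap: C1qa, C1qb and C1qc stand in the macrophage marker list as well, as does Cd14 of the scavenger receptors, F13a1 and Igf1 stand in both lists of this paragraph, Il4r and Stat6 also among the cytokine signalling genes, and Nos2 among both the arginine and the classical activation genes.

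Of 18 tested other scavenger receptors, 15, 15, 13 and 12 were higher than control at 3, 7, 14 and 28 DPI, with medians of 3.14, 3.07, 2.06 and 1.63. Cd14, a co-receptor for lipopolysaccharide, was higher by 5.17 and Colec12, a collectin of endothelium and stroma, by 4.79 at 3 DPI. Between 3 and 7 DPI 3 of the 18 fell, where 5.35% of all genes did, namely Cd14 by 1.73, Clec7a by 1.44 and Mertk by 1.26. The median of the list was -0.28, against -0.06 over all genes and -2.05 over the 6 members; the difference between the lists was not tested. Colec12 (2.70) and Mrc2 (2.44), an endocytic collagen receptor of fibroblasts, were still higher than control at 28 DPI.

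Among genes of interleukin-10, interleukin-4 and interleukin-13 signalling, 13, 13, 13 and 11 of 14 were higher than control. The interleukin-33 receptor Il1rl1 was higher by 5.68 and Il4r by 4.43 at 3 DPI, and Il33 was higher by 1.95 and Il10rb by 1.67 at 28 DPI. Of 15 genes of arginine and polyamine metabolism, 9, 8, 3 and 3 were higher, with medians of 1.05, 1.22, 0.35 and 0.66. These shares (60%, 53.3%, 20% and 20%) were near those of all genes, and the 14 DPI median was under the all-gene 0.53. Sat1, which acetylates polyamines, was higher by 4.54 and Gatm, which uses arginine for creatine synthesis, by 4.11 at 3 DPI. Of 15 classical activation genes, 13, 10, 8 and 5 were higher, with medians of 2.80, 2.10, 1.30 and 0.77. Irf5 was higher by 4.91 and Nos2, the inducible nitric oxide synthase, by 1.15 at 3 DPI, so genes of both activation lists were higher in the same group. Il6 fell by 2.28 and the chemokine Ccl5 rose by 1.13 between 3 and 7 DPI.

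Markers of other cells were counted in the same way, beside 48.3%, 45.6%, 25% and 21.1% of all tested genes higher at 3, 7, 14 and 28 DPI. For lymphatic endothelium, which also carries Lyve1, 3 of 8 markers (Pdpn, Nrp2 and Ccl21), or 37.5%, were higher than control at each day, a smaller share than that of all genes at 3 and 7 DPI and a larger one at 14 and 28 DPI. The summed level was 164 to 175 TPM in control and 244 to 388 TPM at 3 DPI, and no marker was at 0. Prox1, the defining transcription factor, differed by 0.58 at 3 DPI (SE 0.14) and 0.72 at 28 DPI (SE 0.13), under the size limit. For neutrophils 7, 5, 2 and 0 of 8 markers were higher, and the sum went from 1.28 to 5.96 TPM in control to 87.5 to 289 TPM at 3 DPI and 6.01 to 25.1 TPM at 28 DPI, with Elane, Camp and Cxcr1 at 0 in every control muscle. For mast cells 4, 4, 5 and 4 of 7 were higher (sum 5.98 to 8.91 TPM in control, 29.5 to 52.2 TPM at 3 DPI), with Mcpt1 at 0 in control. For B cells 1 of 3 was higher at 3 and 7 DPI, a share under that of all genes (sum 0.06 to 0.39 TPM in control, 5.34 to 6.42 TPM at 3 DPI). Ms4a1 was at 0 in control. Muscle fibre markers, which define the labelled tissue, were all lower at 3 DPI (10 of 10, median -2.10), and 5, 2 and 0 of the 10 were lower at the later days, where 4.24%, 2.42%, 0.547% and 0.212% of all genes were lower in order of day. The part of these cells in the levels of the 6 genes was not tested.

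MMG repair was compared with no repair in non-running rats. At 7 DPI Msr1 ran from 19.6 through 28.1 to 35.8 TPM in 8 grafted muscles, against 5.17 through 13.1 to 28.4 TPM in 8 non-repaired muscles. The groups overlapped, with the highest non-repaired muscle above the grafted median. Msr1 was higher with the graft by 1.09 (SE 0.20, adjusted p = 2.6e-04), 1 of 6 genes where 0.0883% of all genes, 10 in number, passed and the all-gene median was 0.11. After size-factor scaling, and in a model of these 2 groups alone, it no longer passed, and it did not pass without non-repaired replicate 7 or 8. Within ranges of rat numbers its difference was 0.54 in the range of replicates 1 to 4 of each arm, 0.99 in that of replicates 5 and 6, and 2.30 (adjusted p = 6.7e-05) in that of replicates 7 and 8, where the grafted muscles had 35.8 and 29.6 TPM. In the first and second of these limma called 0 of the 6 genes and 0% of all genes, and in the last it called 3 of the 6 and 7.04% of all genes. The difference between ranges was not tested. Folr2 (0.70, SE 0.19, adjusted p = 0.013) and Mrc1 (0.65, SE 0.16, adjusted p = 0.0069) had an adjusted p under 0.05 and a size under the limit. Cd163 differed by 0.42 (SE 0.16), Lyve1 by 0.37 (SE 0.17) and Il10 by 0.21 (SE 0.15). At this day the summed macrophage markers were 2971 to 6247 TPM with the graft and 1050 to 4571 TPM without, and their median difference was 0.55, with 0 of 17 passing; the part of these markers in the difference of Msr1 was not tested.

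At the other days no member passed between grafted and non-repaired muscle. Limma called 0 of 6 at 3, 14 and 28 DPI, where 0.00883%, 0.0265% and 0% of all genes passed, and 2, 1 and 0 of the 6 had an unadjusted p under 0.05 (1957, 593 and 141 of all genes). At 3 DPI Msr1 was at 61.9 to 135 TPM with the graft (median 91.2, 7 muscles) against 52.0 to 56.5 TPM without (3 muscles), and these groups did not overlap. That difference was 0.70 (SE 0.28, adjusted p = 0.23). With the range of rat numbers as covariate in limma it was 0.72 (adjusted p = 0.14). At 14 DPI Cd163 was at 6.92, 7.28, 6.26 and 5.80 TPM with the graft, below all 4 non-repaired muscles, a difference of -0.49 (SE 0.23, adjusted p = 0.73). At 28 DPI the 6 differences lay between -0.00015 and 0.20.

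**Figure D4:**
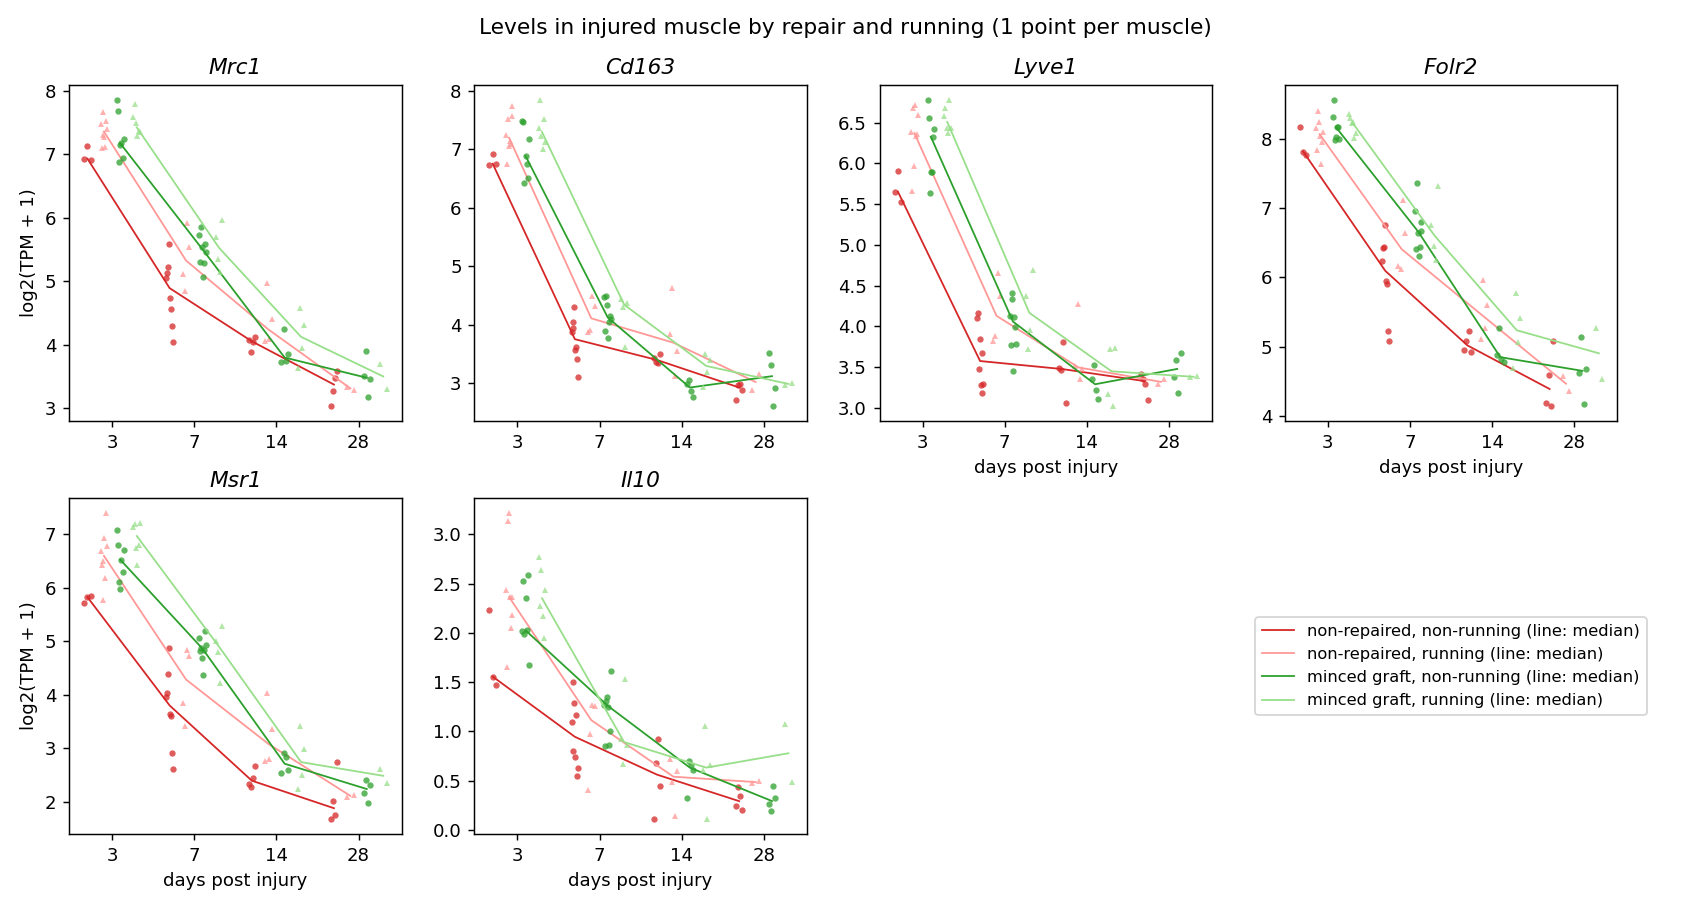
Level of each gene as log2(TPM + 1) in injured muscle at 3, 7, 14 and 28 DPI, 1 point per muscle, without repair (red) or with a minced graft (green) in non-running (circles, dark) and running (triangles, light) rats, with lines through the medians. In each of the 4 arms the median of every gene is lower at 28 than at 3 DPI, and some medians rise between 14 and 28 DPI, such as Cd163 and Lyve1 with the graft in non-running rats. The y axes differ between genes.

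Running was compared with no running in injured muscle. Without repair, limma called 0 of 6 genes at 3, 7, 14 and 28 DPI, where 0.0441%, 0%, 0.0177% and 0.0177% of all genes passed. An unadjusted p under 0.05 was held by 4, 4, 1 and 0 of the 6 and by 1643, 2414, 1128 and 429 of all genes. At 7 DPI all 4 running muscles came from the range of rat numbers of non-running replicates 1 to 4, whereas the 8 non-running muscles spanned 3 ranges. Within that range Folr2 was at 68.9 to 138 TPM with running and 74.3 to 107 TPM without. Cd163 was at 13.6 to 21.4 TPM and 13.7 to 18.7 TPM. The part of the range in these differences was not tested further. At 3 DPI, Il10 ran from 2.13 through 4.14 to 8.28 TPM in 8 running muscles against 1.78 to 3.70 TPM in 3 non-running ones, and Lyve1 from 49.6 through 81.7 to 104 TPM against 45.1 to 58.7 TPM. Both pairs overlapped. The differences were 0.67 (SE 0.20, adjusted p = 0.12) for Il10, 0.64 (SE 0.23, adjusted p = 0.19) for Lyve1, 0.78 (SE 0.27, adjusted p = 0.18) for Msr1 and 0.46 (SE 0.22, adjusted p = 0.32) for Cd163. With the range of rat numbers as covariate in limma, 0 of the 6 passed, and Il10 differed by 0.76 (adjusted p = 0.038), under the size limit. At 14 DPI Msr1 was at 5.78, 15.4, 6.00 and 9.32 TPM with running, above all 4 non-running muscles, a difference of 0.81 (SE 0.28, adjusted p = 0.35).

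With the graft, limma called 0 of 6 genes and 0% of all genes at 3, 7, 14 and 28 DPI between running and non-running rats, and 1, 0, 0 and 0 of the 6 had an unadjusted p under 0.05 (594, 207, 71 and 951 of all genes). At 7 DPI the 6 differences lay between -0.19 and 0.19. The test of whether running acted differently with and without the graft called 0 of 6 at each day, where 0.00883%, 0%, 0% and 0.00883% of all genes passed, and 0 of the 6 had an unadjusted p under 0.05 (477, 329, 257 and 79 of all genes). At 7 DPI the interaction terms of the 6 lay between -0.52 and -0.19 with SEs of 0.26 to 0.35. There the running muscles of both arms came from a single range of rat numbers, and the non-running muscles from every range present at that day.

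**Figure D5:**
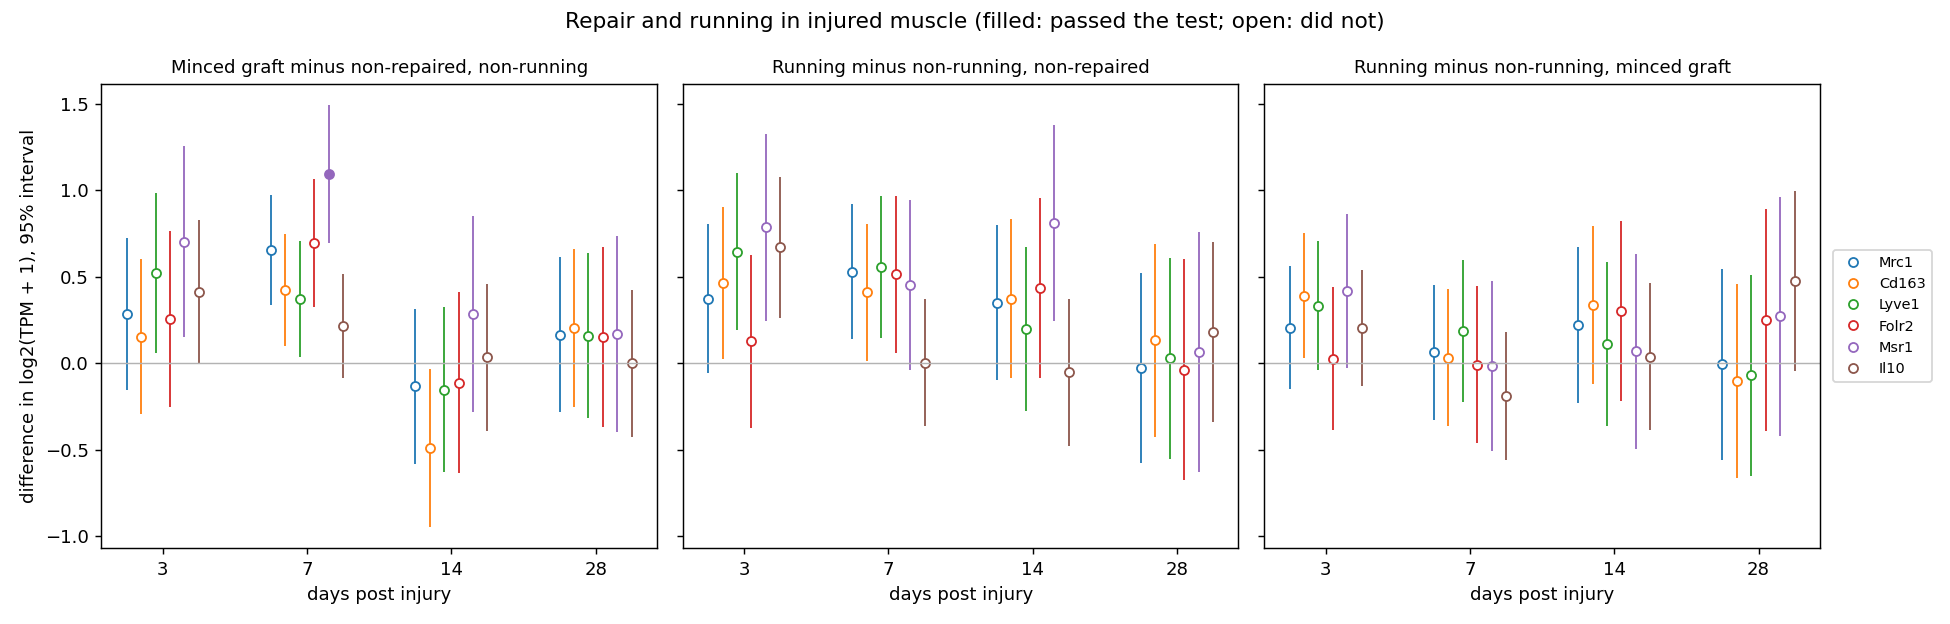
Difference in log2(TPM + 1) with its 95% interval for each gene at 3, 7, 14 and 28 DPI: minced graft minus non-repaired in non-running rats (left), and running minus non-running without repair (middle) and with the graft (right); filled points passed the test and open points did not. Msr1 at 7 DPI in the left panel, at 1.09, is the filled point.

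The genes tracked each other closely over the injured muscles. Over 76 injured muscles, which share the day after injury and the fall of most macrophage markers, Pearson's r of log2 levels was 0.990 between Mrc1 and Folr2, 0.986 between Mrc1 and Msr1, and 0.982 between Cd163 and Lyve1. The lowest of the pairs was Msr1 with Il10, at 0.886. Over the 31 group means, Lyve1 was the second most similar of all tested genes to Cd163 (r = 0.987) and Cd163 the most similar to Lyve1. Folr2 was most like Tf, the transferrin gene, and Csf1r, the receptor for the macrophage growth factor (r = 0.998 and 0.997), and Mrc1 was most like Lilrb3a, Lilrb3b and Fcgr1a (0.997, 0.997 and 0.996). Msr1 was most like Cd200r1 and C3ar1 (0.997 and 0.997), the first a receptor of myeloid cells that restrains activation and the second the receptor for complement fragment C3a. Il10 was most like F5 (0.985), the clotting factor V gene. These likenesses describe 31 group means, 1 set of libraries, and carry no test.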

How the data were processed

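Whole TA muscles were sequenced as Truseq libraries from total RNA. The authors pseudo-aligned the reads with Kallisto to rat genome build 6.0 (versions not given in the sources used here) and deposited 1 table of TPM per gene symbol for 138 libraries. TPM keeps no read depth, so depth is unknown here. The table broke off after Tubb3, so genes whose symbols sort after it were left out and shares of all genes, gene lists and likenesses do not cover them. From it, 13 libraries with fewer than 7000 symbols above 1 TPM (901 to 5712, against 7866 to 10948 in those kept) were dropped, 9 libraries whose labels disagreed on day or condition were left unassigned, and libraries of 1 muscle were averaged. No pair of libraries held identical values.

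Genes with a mean above 1 TPM in at least 1 group (11328) were fitted on log2(TPM + 1) with limma 3.58.1 in R 4.3.3 (group means, 83 residual degrees of freedom, moderated with a trend). P-values measure the spread between muscles, and in control muscle 2 rats gave both legs. The files held TPM, so the authors' count-based test was not repeated. Of 34 rats with both muscles in groups of more than 1, deviations from the group mean had r over 0.1 in 15 (median 0.079), and a fit with the rat as block was an alternative. The code was tested on simulated data. Other genes named were, per list and comparison, those with the largest and smallest differences that passed, plus genes most like each member. Prox1, C1qb, C1qc, Ccr2, Igf1 and Stat6 were named after their values were seen. A result for 1 gene of the set is not reported here. The genes and lists were chosen with earlier results of these data known. The alternatives were another pseudocount, no low-value filter, all libraries, unaveraged libraries, size factors, fewer groups in the model, non-running rats alone, the range of rat numbers as covariate, controls averaged per rat, adjusted p alone, fits within ranges of rat numbers and leaving out single muscles of the compared groups.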

Additional observations from a re-analysis of the deposited data

Results flagged for a closer look

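Among 96 sets of 4 to 10 muscles (a gene in a group), 3 (3.12%) held a muscle far from the others by Dixon's ratio at the 95% level, and chance flags about 1 in 20. In contralateral muscle of non-repaired, non-running rats at 7 DPI, the same muscle stood high for Mrc1, at 2.85 TPM with the next at 2 TPM, and for Cd163, at 2.45 TPM with the next at 1.62 TPM. In that group another muscle had 0.19 TPM of Il10, listed at 0 in the remaining 3. With the others at 0 the ratio is 1 for any value above 0, so this flag says nothing about distance.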

How the results depend on the processing

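None of the 81 differences of single genes that passed changed direction under any alternative. Counts below differed by more than 1.5 times from those reported, and every other count by at most 1 gene. Size factors lost 10 of the 81 calls. The range of rat numbers as covariate lost 1, Il10 for graft against contralateral at 7 DPI (0.98). With all libraries kept, the count of the 6 genes that passed was 2 for graft against non-repaired at 7 DPI, 0 for 14 against 7 DPI, and 0 and 0 for contralateral against control at 7 and 14 DPI. A pseudocount of 0.1 TPM gave 5 for injured against contralateral at 28 DPI, 2 for 14 against 7 DPI and 2, 4 and 3 for contralateral against control at 7, 14 and 28 DPI. Size factors (0.38 to 1.55) gave 3 and 3 for graft against contralateral at 14 and 28 DPI, 0 for graft against non-repaired at 7 DPI, 0 for 14 against 7 DPI and 1 for contralateral against control at 28 DPI. A model of the compared groups alone gave 0 for graft against non-repaired at 7 DPI and 0, 0 and 0 for contralateral against control at 3, 7 and 14 DPI. Adjusted p alone gave 5 for injured against contralateral at 28 DPI, 3 for graft against non-repaired at 7 DPI and 4 for 14 against 7 DPI. Controls averaged per rat, and leaving out the second control rat (chosen after seeing the data), gave 0 and 0 for contralateral against control at 7 and 14 DPI. Within ranges of rat numbers (chosen after seeing the data), the count was 0 for 14 against 7 DPI in the range of the 14 DPI rats, and for graft against non-repaired at 7 DPI it was 3 in that range and 0 in both others. The cause was not tested. Leaving out 1 muscle at a time (94 fits; the group of 8 running, non-repaired muscles at 3 DPI and the contralateral muscles of running rats, which entered no comparison, were kept whole) gave 0 to 1 for graft against non-repaired at 7 DPI, 1 to 2 for 14 against 7 DPI and, for contralateral against control, 2 to 5 at 3 DPI and 0 to 1 at 7, 14 and 28 DPI. The muscles that decided these were non-repaired injured replicates 7 and 8 at 7 DPI and 3 at 14 DPI, contralateral replicate 1 at 3 DPI (2 without it), contralateral replicate 3 at 7 DPI, contralateral replicates 1 and 2 at 14 DPI, and control replicates 2, 3 and 4.

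The replicate block, pairing the muscles of a rat with an estimated correlation of 0.026, changed no count, which stayed at 6 for injured against contralateral at 3 DPI and 3 at 28 DPI. Differences that had not passed and changed sign were Lyve1 for 14 against 7 DPI (0.12 with all libraries, 0.19 with size factors, 0.22 within the range of the 14 DPI rats) and Cd163, within that range for 14 against 7 DPI (0.15), and with size factors for graft against non-repaired at 3 DPI (-0.0096) and for 14 against 7 DPI (0.039). Depth cannot be weighed with TPM alone, and genes near 1 TPM, Il10 above all, are the least certain.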

Other observations

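The 9 libraries whose labels disagreed on day or condition, 8 of them labelled as running rats at 28 DPI, entered no comparison. In them Folr2 ranged from 4.62 to 26.0 TPM, Mrc1 from 1.89 to 10.2 TPM, Cd163 from 1.72 to 8.06 TPM, Lyve1 from 3.14 to 9.93 TPM, Msr1 from 0.33 to 4.90 TPM and Il10 from 0 to 0.82 TPM.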
